A study of Danio rerio with 8 samples.

Results

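The genes described here encode the axonemal dyneins and the other parts of motile cilia, together with factors that assemble the dynein arms and transcription factors of the motile cilium programme. They were taken from a table of transcript levels in whole zebrafish larvae by gene symbol, ignoring case. A gene was included when its symbol began with dnah, dnai, dnal, dnaaf, cfap, drc, rsph, odad or spag, or was ccdc39, ccdc40, lrrc23, foxj1a, foxj1b, rfx2 or zmynd10. Of 32520 genes in the table, 101 had such a symbol, and 73 of these averaged 0.5 TPM or more over the 8 libraries and are the members described below. TPM is a relative transcript level per unit of length, with the same total in every library.

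The 4 mutant libraries came from larvae homozygous for the sa24730 allele of nphp8 whose mothers were mutant as well, so that maternal and zygotic copies both carried the allele. The other 4 libraries came from controls, which one label calls wild type and the series' design text calls siblings of the mutants. Both groups were whole, untreated larvae at 2 days of age, and RNA was sequenced from total RNA. How many larvae were pooled in a sample, and whether the samples were separate clutches, is not stated. The p-values thus reflect only the scatter among the 8 samples, and part of that scatter may be technical.

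Motile cilia beat because dynein motors bridge neighbouring doublet microtubules of the axoneme and make them slide. Outer dynein arms, held by a docking complex, supply most of the power, while inner arms shape the bend under the control of radial spokes, a central apparatus and the nexin-dynein regulatory complex (N-DRC). A coiled-coil ruler made of CCDC39 and CCDC40 sets the spacing at which spokes, inner arms and the N-DRC repeat along the doublet. Dynein arms are put together in the cytoplasm by assembly factors before they enter the cilium, and FOXJ1 and RFX transcription factors switch on much of the programme. In zebrafish larvae, motile cilia drive fluid in the pronephros, the olfactory pits, the inner ear and the brain ventricles and central canal. The product of nphp8, also named rpgrip1l, sits in the transition zone at the cilium base and is best known for its role in primary cilia.

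The mutated gene itself served as a check of the labels. RPGRIP1L (ENSDARG00000051754) had 0.75, 0.72, 0.77 and 0.78 TPM in mutant libraries 1 to 4, against 2.75, 2.6, 2.26 and 2.17 TPM in control libraries 1 to 4, with no overlap. Its ratio of means was 0.309 and its log2 change was -0.97 (limma adjusted p = 2.32e-05), and an exact two-sided permutation test of the means gave p = 0.0286, the smallest that the 70 assignments of 4 and 4 libraries allow. Read depth is unknown because TPM carries no counts. Libraries held 23637 to 23964 genes with values above 0, and Spearman correlations of TPM were 0.98 to 0.982 within the groups and 0.976 to 0.98 between them. No library stood apart from its group on these measures.

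Most motile cilia transcripts did not pass the test, and those that did moved in both directions. Of the 73 members, 2 rose and 5 fell in mutants, and 66 were not called. CCDC39, a strand of the ruler, and LRRC23, a radial spoke head protein, rose. The assembly factor CFAP298, the outer arm heavy chain DNAH11, the outer arm light chain DNAL1, the N-DRC scaffold DRC1 and cfap119 fell. A gene was called at an adjusted p under 0.05 in a limma fit of log2(TPM + 1) over the 18635 genes that averaged 0.5 TPM or more. Log2 changes are mutant minus control on this scale, so the added 1 makes changes of the lowest genes look smaller than they are.

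Over all genes tested, 20.3% were called, 8.38% as higher and 11.9% as lower in mutants, while the members came to 9.59% called. An unadjusted p under 0.05 in the limma fit was reached by 11 of the 73 members and by 6250 of the 18635 genes tested. The median log2 change of the members was -0.04, beside -0.01 over all genes, and single members ran from -0.52 to 0.55. The sum of all members was 295.5, 305.4, 296.4 and 308.0 TPM in mutant libraries 1 to 4, against 306.3, 314.5, 313.8 and 311.9 TPM in control libraries 1 to 4, so the ranges overlapped. For the 58 members with an axonemal, assembly or regulator role, the ranges did not overlap. Their sum was 198.4 to 207.5 TPM in mutants, against 214.8 to 216.1 TPM in controls. Neither sum was planned beforehand or tested, and abundant genes such as CFAP20, with a mean of 38 TPM, weigh most in them. Of the 58 members 52 were not called (10.3% called), and the median log2 change of the 58 was -0.05. Without any model, the 4 mutant and 4 control values did not overlap in 8 members (11%), 3 higher and 5 lower in mutants, beside 24.5% of all genes. Where a ciliary transcript was lower, fewer ciliated cells and less RNA per ciliated cell cannot be told apart in bulk RNA from whole larvae.

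**Figure D1:**
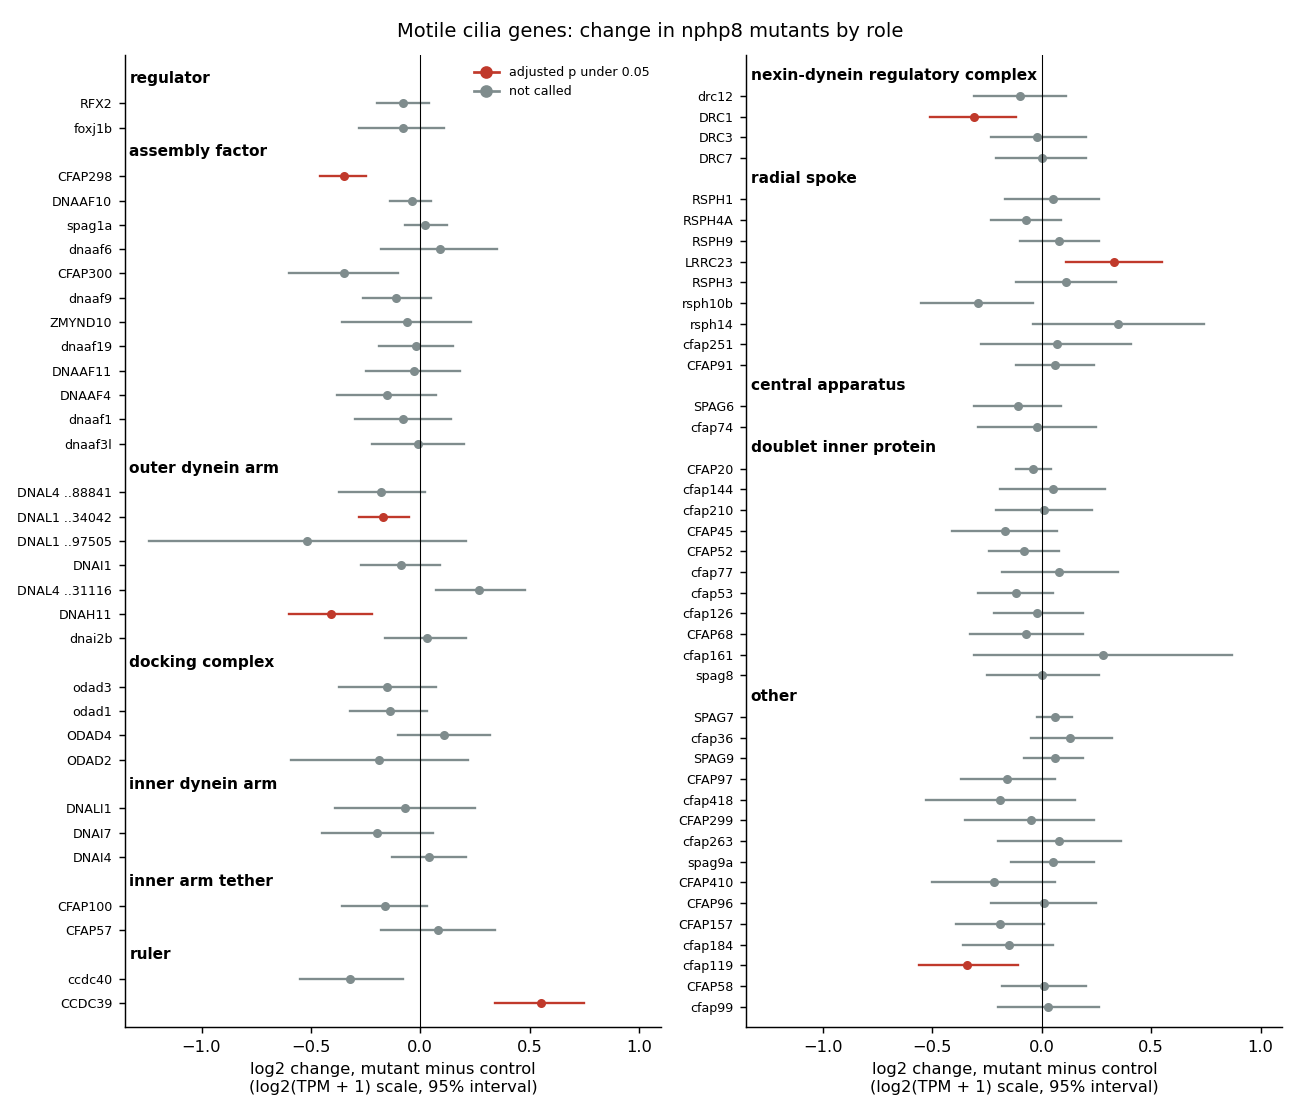
Each point is the log2 change of one member, mutant minus control on the log2(TPM + 1) scale, with its 95% interval, and the members are grouped by role. The 7 red genes passed an adjusted p under 0.05, with CCDC39 farthest to the right at 0.55, and the intervals of most grey genes span 0; the digits after DNAL1 and DNAL4 are the ends of their gene identifiers.

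The transcription factors of the programme were not called. RFX2, which binds the X-box of ciliary gene promoters, had 15.07, 16.85, 17.01 and 14.75 TPM in mutant libraries 1 to 4, against 16.3, 17.32, 16.31 and 17.43 TPM in control libraries 1 to 4. The groups overlapped, and its log2 change of -0.08 (limma adjusted p = 0.345) had a 95% interval of -0.20 to 0.04. The forkhead factor foxj1b had 1.45, 1.86, 1.46 and 1.86 TPM in mutants, against 1.8, 1.64, 2.08 and 1.72 TPM in controls, with a log2 change of -0.08 and an interval of -0.28 to 0.11. No row of the table carried the symbol foxj1a. A gene listed as FOXJ1 (ENSDARG00000101919), which the selection by symbol did not take in and which was looked up after the values were seen, averaged 3.23 ± 0.24 TPM in mutants and 3.16 ± 0.191 TPM in controls (SD, n = 4 each), with a log2 change of 0.02 and an interval of -0.13 to 0.17. Neither member reached an unadjusted p under 0.05.

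Among the 12 assembly factors taken in by symbol, 1 fell and none rose (8.33% called, beside 20.3% of all genes tested), with a median log2 change of -0.05. CFAP298, whose loss in zebrafish (kurly) leaves cilia with defective dynein arms, had 10.63, 11.89, 10.82 and 10.99 TPM in mutant libraries 1 to 4, against 14.46, 13.58, 14.7 and 14.92 TPM in control libraries 1 to 4. All mutant values lay below all control values. The ratio of means was 0.769 and the log2 change -0.35 (SE 0.0477, limma adjusted p = 0.000785), and the call held in all 19 alternative fits. In the RefSeq annotation CFAP298 overlaps mis18a, hunk, eva1c and b3glctb, the last of which was not matched to a gene of the table, and since the strand setting of the library is not known, reads from overlapping genes cannot be told apart. The most abundant of those matched, mis18a, averaged 16.6 ± 0.7 TPM in mutants and 16.4 ± 0.674 TPM in controls (SD, n = 4 each) and was not called.

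The remaining assembly factors among the members were not called. Outside the symbol rule, the assembly gene pih1d2 was called lower, as given further below, and pih1d1 was not called. DNAAF10, a subunit of a cochaperone complex that folds dynein parts, was the most abundant after CFAP298 and averaged 12.1 ± 0.168 TPM in mutants and 12.5 ± 0.533 TPM in controls (SD, n = 4 each; log2 change -0.04, 95% interval -0.14 to 0.05). CFAP300, another dynein assembly factor, came closest to a call, with 2.14, 2.84, 2.04 and 2.4 TPM in mutants, against 3.75, 3.0, 3.8 and 2.59 TPM in controls. Its groups overlapped, and its log2 change was -0.35 (limma adjusted p = 0.0561). It was called without mutant 2 (adjusted p = 0.0392) or without control 4 (0.0267). In the annotation CFAP300 overlaps angptl5, whose values are not given here. Of the 12 assembly factors 10 had estimates below 0 (83.3%, beside 53.4% of all genes tested) and 2 above, a count that was not tested. In 11 of them the groups overlapped, so that 8.33% did not overlap, beside 24.5% of all genes tested. The lowest of them, dnaaf3l, lies just above the limit with a mean of 0.632 TPM over the 8 libraries.

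Of 7 outer dynein arm genes 2 fell and none rose (28.6% called, beside 20.3% of all genes tested). Their median log2 change was -0.17. DNAH11 (ENSDARG00000094282), a heavy chain that in human airway cilia occupies the proximal part of the axoneme, had 0.81, 1.03, 0.88 and 0.89 TPM in mutant libraries 1 to 4, against 1.86, 1.33, 1.43 and 1.49 TPM in control libraries 1 to 4. The groups did not overlap. Mutants averaged 0.903 ± 0.0922 TPM and controls 1.53 ± 0.231 TPM (SD, n = 4 each), which gives a ratio of 0.591 and a log2 change of -0.41 (SE 0.0852, limma adjusted p = 0.00865). The adjusted p was between 0.0058 and 0.0384 in the 18 alternative fits that tested it.

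DNAH11 was the sole heavy chain of the dnah group above the limit, and the other 11 genes of that group lay below it. Summed over all 12, heavy chains came to 2.8, 3.39, 3.34 and 3.32 TPM in mutant libraries 1 to 4, against 4.55, 3.94, 3.63 and 3.75 TPM in control libraries 1 to 4. Without DNAH11 the sums were 1.99, 2.36, 2.46 and 2.43 TPM in mutants, against 2.69, 2.61, 2.2 and 2.26 TPM in controls, so the separation of the groups in the sum was lost when DNAH11 was left out. Both sums were formed after the values were seen and were not tested.

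DNAL1 is the light chain that binds the motor domain of an outer arm heavy chain, and 2 gene identifiers carry its symbol. The first, ENSDARG00000034042, had 4.74, 5.01, 4.68 and 4.84 TPM in mutants, against 5.48, 5.85, 5.48 and 5.35 TPM in controls. Its groups did not overlap, but the difference was small, with a ratio of 0.87 and a log2 change of -0.17 (SE 0.0511, limma adjusted p = 0.0436). That call was lost whenever a library other than mutant 2 was left out, and the adjusted p ranged from 0.0223 to 0.109 over 19 alternatives. The other copy, ENSDARG00000097505, scattered over 2.59, 1.37, 0.61 and 4.15 TPM in mutants, against 4.32, 3.29, 1.93 and 3.44 TPM in controls, and was not called (log2 change -0.52, 95% interval -1.24 to 0.21).

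DNAL4, a light chain at the base of the outer arm, is also listed under 2 identifiers, and their estimates had opposite signs. ENSDARG00000088841, the most abundant outer arm gene, averaged 10.5 ± 0.927 TPM in mutants and 12 ± 1.47 TPM in controls (SD, n = 4 each; log2 change -0.18, limma adjusted p = 0.185), and was called when control 1 was left out (adjusted p = 0.0492). ENSDARG00000031116 had 1.61, 2.01, 1.45 and 1.68 TPM in mutants, against 1.04, 1.11, 1.42 and 1.32 TPM in controls. The groups of that copy did not overlap, mutants being higher, yet its change of 0.27 on the log2 scale missed the threshold (limma adjusted p = 0.0604). It was called higher after median-of-ratios rescaling of the libraries (adjusted p = 0.0446) and without the trend option of limma (0.045). How alike the sequences of the copies are was not examined here, so values of single copies of DNAL1 and DNAL4 are uncertain as far as reads fit both. The intermediate chain DNAI1 averaged 2.1 ± 0.223 TPM in mutants and 2.29 ± 0.207 TPM in controls, and dnai2b 0.705 ± 0.132 TPM in mutants and 0.672 ± 0.064 TPM in controls (SD, n = 4 each), and neither was called.

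**Figure D2:**
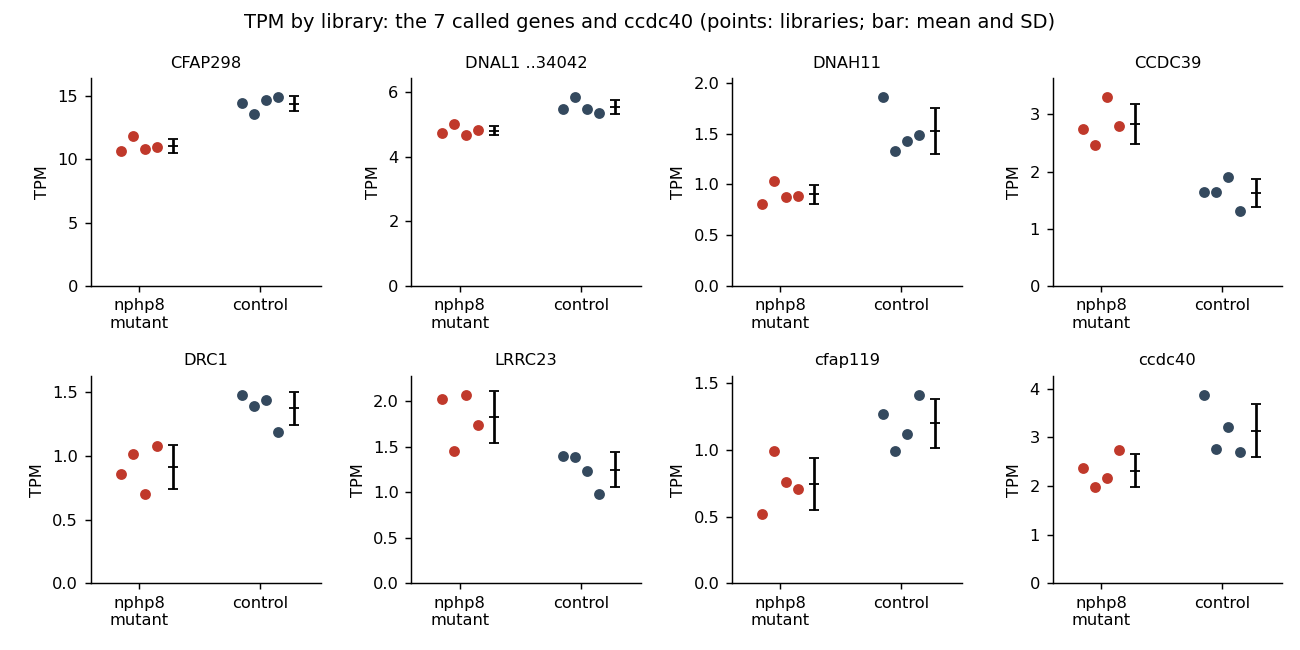
TPM in each library for the 7 called genes and ccdc40, with nphp8 mutants in red on the left and controls in blue on the right of each panel; bars give the mean and SD of 4 libraries and every axis starts at 0. Mutant and control points are apart for CFAP298, DNAL1 (ENSDARG00000034042), DNAH11, CCDC39, DRC1 and LRRC23, touch at 0.99 TPM for cfap119 and overlap for ccdc40.

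None of the 4 docking complex genes was called by limma, beside 20.3% of all genes tested. None had an unadjusted p under 0.05, beside 6250 of the 18635 genes tested. The core subunit odad3 had 2.54, 2.66, 2.22 and 2.0 TPM in mutants, against 2.16, 3.03, 2.87 and 2.84 TPM in controls. For odad1, the partner that lies along the doublet with it, the values were 1.77, 2.04, 1.89 and 1.84 TPM in mutants, against 1.87, 2.51, 2.29 and 2.1 TPM in controls. Both pairs of groups overlapped, and the log2 changes were -0.15 (95% interval -0.37 to 0.07) for odad3 and -0.14 (95% interval -0.32 to 0.03) for odad1. ODAD4 averaged 2.07 ± 0.188 TPM in mutants and 1.85 ± 0.34 TPM in controls (SD, n = 4 each).

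The inner dynein arms and their tethers gave no call by limma either, and no unadjusted p under 0.05, among 3 and 2 genes. Of the 18635 genes tested 20.3% were called and 6250 had an unadjusted p under 0.05. DNALI1, a light intermediate chain of the single-headed inner arms, averaged 2.82 ± 0.702 TPM in mutants and 2.98 ± 0.542 TPM in controls (SD, n = 4 each), a log2 change of -0.07 with an interval of -0.39 to 0.25. In the annotation DNALI1 overlaps GNL2, which averaged 26.4 TPM over the 8 libraries and was not called. DNAI7, whose counterpart in the alga Chlamydomonas is an inner arm chain, averaged 1.41 ± 0.226 TPM in mutants and 1.78 ± 0.384 TPM in controls (SD, n = 4 each; log2 change -0.20, interval -0.45 to 0.06). Of the tether genes, known as such from Chlamydomonas, CFAP100 averaged 1.4 ± 0.241 TPM in mutants and 1.68 ± 0.141 TPM in controls, and CFAP57 1.08 ± 0.216 TPM in mutants and 0.975 ± 0.29 TPM in controls (SD, n = 4 each). CFAP100 overlaps ALDH1L1 in the annotation, a gene that was itself called higher in mutants (ratio 1.19). Counted together, the outer and inner arms had 2 of 10 genes called (20%, beside 20.3% of all genes), both lower, with a median log2 change of -0.13.

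The partners of the ruler had estimates of opposite sign. CCDC39 (ENSDARG00000100981) had 2.75, 2.47, 3.3 and 2.8 TPM in mutant libraries 1 to 4, against 1.64, 1.64, 1.9 and 1.31 TPM in control libraries 1 to 4. The lowest mutant library was above the highest control. Mutants averaged 2.83 ± 0.345 TPM and controls 1.62 ± 0.242 TPM (SD, n = 4 each), which gives a ratio of 1.74 and a log2 change of 0.55 (SE 0.0928, limma adjusted p = 0.00288). This was the largest change by size among the called members, and the call held in all 18 alternative fits that tested it, with adjusted p between 0.00225 and 0.00945.

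Its partner ccdc40 (ENSDARG00000100584) had 2.38, 1.97, 2.16 and 2.75 TPM in mutants, against 3.87, 2.77, 3.22 and 2.69 TPM in controls. The groups overlapped, and the log2 change of -0.32 (SE 0.107, limma adjusted p = 0.0644) was not called, although it was called without mutant 4 (adjusted p = 0.0464). Within a library, CCDC39 stood at 1.16, 1.25, 1.53 and 1.02 times ccdc40 in mutants 1 to 4, against 0.424, 0.592, 0.59 and 0.487 times in controls 1 to 4. CCDC39 was thus above ccdc40 in each mutant library and below it in each control library. The ratio was formed after the values were seen and was not tested. The RefSeq annotation lists no gene that overlaps either of them.

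**Figure D3:**
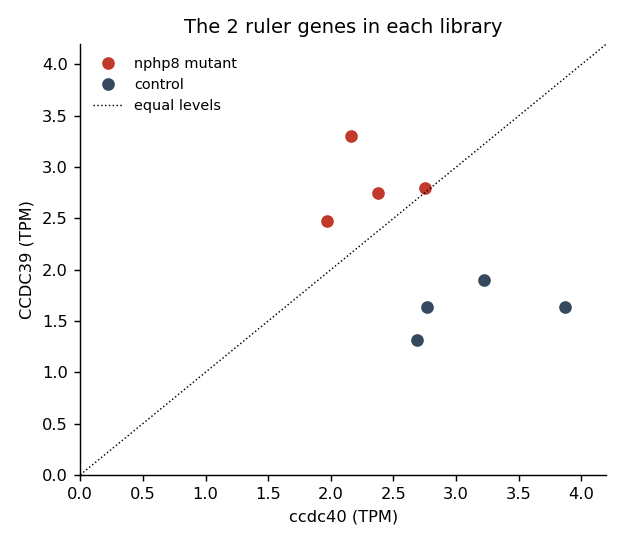
Levels of CCDC39 (vertical axis, TPM) and ccdc40 (horizontal axis, TPM) in each library, with nphp8 mutants in red and controls in blue; the dotted line marks equal levels. The 4 mutant libraries lie above the line, with ratios of 1.02 to 1.53, and the 4 control libraries below it, with ratios of 0.424 to 0.592.

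Among the 4 N-DRC genes taken in by symbol, 1 fell and none rose (25% called, beside 20.3% of all genes tested). DRC1, the scaffold on which the rest of the complex is built, had 0.86, 1.02, 0.7 and 1.08 TPM in mutants, against 1.48, 1.39, 1.44 and 1.19 TPM in controls. Mutant and control values did not overlap, with a gap between 1.08 and 1.19 TPM. The ratio was 0.665 and the log2 change -0.31 (SE 0.0876, limma adjusted p = 0.0315). In the annotation DRC1 overlaps paplnb, which averaged 0.186 TPM over the 8 libraries. The DRC1 call was lost without mutant 1 (adjusted p = 0.0754), mutant 3 (0.073), control 1 (0.0749), control 2 (0.0673) or control 3 (0.0706). The more abundant drc12 averaged 3.49 ± 0.282 TPM in mutants and 3.84 ± 0.609 TPM in controls (SD, n = 4 each; log2 change -0.10, 95% interval -0.31 to 0.11). DRC3 and DRC7 had log2 changes of -0.02 and -0.00, and DRC7 sits near the limit with a mean of 0.657 TPM. Further N-DRC genes outside the symbol rule were tested, and none of them was called. Their log2 changes were -0.04 for GAS8, -0.09 for ccdc65, -0.21 for efcab2, -0.06 for iqcg and 0.02 for IQCD.

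Of 9 radial spoke genes 7 had estimates above 0, beside 8685 of the 18635 genes tested. Their median log2 change was 0.07, and 1 was called (11.1%, beside 20.3% of all genes tested). The count of signs was not tested. LRRC23, a head protein of the spoke most distant from the cilium base in each repeat, had 2.03, 1.46, 2.07 and 1.74 TPM in mutants, against 1.4, 1.39, 1.23 and 0.98 TPM in controls. The groups were apart by a narrow margin, 1.46 TPM in mutant 2 against 1.4 TPM in control 1. The ratio was 1.46 and the log2 change 0.33 (SE 0.0985, limma adjusted p = 0.0426). The LRRC23 call was lost whenever a library other than mutant 2 was left out, with adjusted p from 0.053 without control 1 to 0.107 without mutant 1.

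The other spoke head genes were not called. RSPH1 had 12.35, 12.48, 15.33 and 14.95 TPM in mutants, against 12.62, 11.35, 14.06 and 15.16 TPM in controls, a log2 change of 0.05 with a 95% interval of -0.17 to 0.26. RSPH4A averaged 3.04 ± 0.0465 TPM in mutants and 3.26 ± 0.358 TPM in controls (SD, n = 4 each), a log2 change of -0.07 with an interval of -0.23 to 0.09. It overlaps lrwd1 in the annotation, which was called lower in mutants (ratio 0.849). RSPH9 averaged 2.58 ± 0.179 TPM in mutants and 2.4 ± 0.305 TPM in controls (SD, n = 4 each).

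The remaining spoke genes were not called either. The gene rsph10b had 0.67, 0.53, 0.71 and 0.71 TPM in mutants, against 1.39, 0.81, 1.23 and 0.74 TPM in controls. Its groups did not overlap, mutants being lower, but the test was not passed (log2 change -0.29, limma adjusted p = 0.102). In the annotation rsph10b overlaps dlgap5, whose values are not given here. For rsph14 the values were 0.52, 1.04, 1.39 and 0.83 TPM in mutants, against 0.28, 1.06, 0.39 and 0.41 TPM in controls, and control 2 stood above the other controls. CFAP91, at the spoke base and close to the limit, averaged 0.665 ± 0.107 TPM in mutants and 0.595 ± 0.0755 TPM in controls (SD, n = 4 each).

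Neither of the 2 central apparatus genes was called by limma, beside 20.3% of all genes tested. Neither had an unadjusted p under 0.05, beside 6250 of the 18635 genes tested. SPAG6, an armadillo-repeat protein of the central pair, averaged 2.13 ± 0.147 TPM in mutants and 2.4 ± 0.389 TPM in controls (SD, n = 4 each), with a log2 change of -0.11 and a 95% interval of -0.31 to 0.09. For cfap74 the averages were 0.95 ± 0.208 TPM in mutants and 0.99 ± 0.285 TPM in controls (SD, n = 4 each). Another gene of this apparatus, spag17, fell just short of the limit with a mean of 0.492 TPM.

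The 11 proteins that line the inside or the inner junction of the doublet microtubules gave no call by limma and no unadjusted p under 0.05. Of the 18635 genes tested 20.3% were called and 6250 had an unadjusted p under 0.05. The median log2 change of the 11 was -0.02. CFAP20, which seals the inner junction and is also found at centrioles, was their most abundant member, with 36.47, 38.59, 37.03 and 37.76 TPM in mutants, against 36.96, 39.12, 40.53 and 37.35 TPM in controls. Its groups overlapped, and its 95% interval of -0.12 to 0.04 was among the narrowest. For cfap144 the averages were 3.36 ± 0.29 TPM in mutants and 3.23 ± 0.607 TPM in controls (SD, n = 4 each). The widest scatter was in cfap161, with 0.75, 1.55, 3.65 and 0.86 TPM in mutants, against 1.28, 0.88, 1.05 and 1.02 TPM in controls. Mutant 3 stood above the other 7 libraries, and the log2 change of 0.28 had an interval of -0.31 to 0.87.

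The last 15 members share a symbol prefix with the rest, and several are not known as axonemal parts. SPAG7 was the most abundant member of all, averaging 55.6 ± 2.08 TPM in mutants and 53.2 ± 1.93 TPM in controls (SD, n = 4 each; log2 change 0.06, limma adjusted p = 0.278). For cfap36 the averages were 11.7 ± 0.973 TPM in mutants and 10.6 ± 1.14 TPM in controls (SD, n = 4 each). Of these 15 genes 1 fell (6.67% called, beside 20.3% of all genes tested), namely cfap119, known in mice for a role in sperm tails. Its values were 0.52, 0.99, 0.76 and 0.71 TPM in mutants, against 1.27, 0.99, 1.12 and 1.41 TPM in controls. The groups touched at 0.99 TPM, the ratio was 0.622, and the log2 change was -0.34 (SE 0.102, limma adjusted p = 0.0438). The cfap119 call was lost without mutants 1, 3 or 4 or controls 1, 3 or 4, with adjusted p from 0.0688 to 0.11. Its overlapping neighbour PHKG2 averaged 12.9 ± 0.487 TPM in mutants and 12 ± 0.481 TPM in controls (SD, n = 4 each) and was not called.

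The members differed widely in level, from 0.63 TPM for CFAP91 to 54.4 TPM for SPAG7 on average over the 8 libraries, and 12 of them averaged at least 5 TPM. Their median was 1.91 TPM, beside 2.02 TPM for the other motile cilia genes tested and 6.32 TPM over all genes tested. Since fewer genes were called at low level, the members were also set beside all genes of their own level. Between 0.5 and 1 TPM 1 of 15 members was called (6.67%), beside 6.99% of all genes at that level. Between 1 and 5 TPM it was 4 of 46 (8.7%) beside 13.5%, and from 5 TPM 2 of 12 (16.7%) beside 27%. These shares describe the libraries and were not tested against each other. The median standard error of the log2 change was 0.0949 for members, beside 0.072 for all genes, and the median size of the change was 0.0841, beside 0.107.

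**Figure D4:**
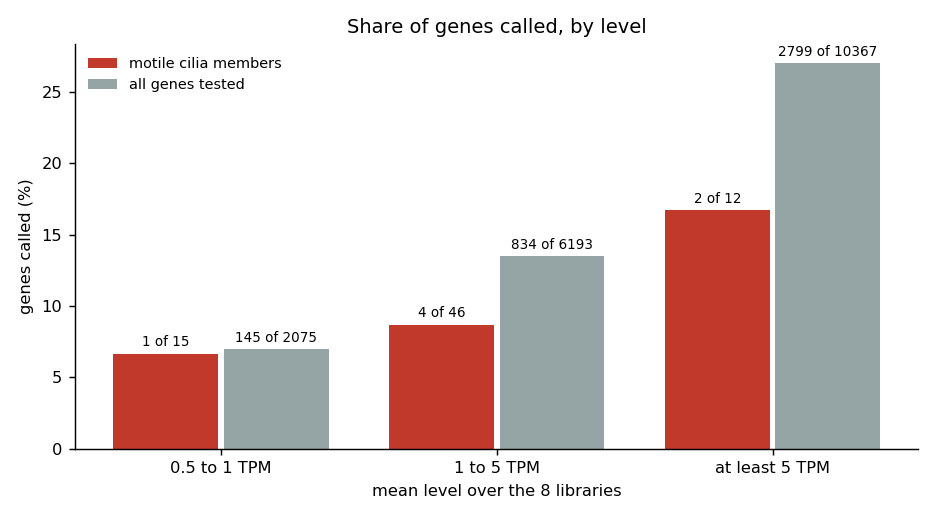
Share of genes called at an adjusted p under 0.05 (vertical axis, percent) in 3 ranges of mean level over the 8 libraries, for the motile cilia members in red and all genes tested in grey; the text above a bar gives the genes called of the genes tested. The shares of members were 6.67%, 8.7% and 16.7% from low to high level, beside 6.99%, 13.5% and 27% of all genes.

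Another 28 genes matched by symbol but stayed under 0.5 TPM, among them the heavy chains DNAH5, DNAH7, dnah9 and DNAH10 and the assembly factors dnaaf2 and dnaaf3. Just below the limit lay spag17 (0.492 TPM), cfap97d2 (0.459 TPM) and CFAP43 (0.443 TPM). With no filter on level, limma called none of the 28, and 2 had an unadjusted p under 0.05. In that fit 1442 of 26064 genes were called higher and 2045 lower. The lowest adjusted p were 0.0552 for cfap92 (log2 change -0.19) and 0.0867 for dnah9l (log2 change 0.21). DNAH5, the partner heavy chain of the outer arm, averaged 0.367 TPM over the 8 libraries, and its log2 change was -0.24 (limma adjusted p = 0.189).

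Further genes outside the symbol rule were listed as linked to motile cilia, and several, MYB and lrwd1 among them, are not specific to cilia. From a list of 117 names, such as tektins, further doublet proteins and multiciliogenesis factors, 67 genes were tested. Of these 67 genes 2 rose and 4 fell (8.96% called, beside 20.3% of all genes tested), with a median log2 change of -0.04. The largest change was in odf3l2a, of the outer dense fibre family of sperm tails, with 1.28 ± 0.0483 TPM in mutants and 2.59 ± 0.216 TPM in controls (SD, n = 4 each; ratio 0.494, log2 change -0.65, limma adjusted p = 0.000173). The dynein assembly gene pih1d2 fell to 0.737 ± 0.207 TPM in mutants, against 1.19 ± 0.127 TPM in controls (ratio 0.621, limma adjusted p = 0.0381), a call lost when any library but mutant 1 or control 3 was left out (adjusted p up to 0.0932 over the alternatives). FOXN4, which promotes multiciliated cells in Xenopus and also acts in retina and spinal cord, rose (ratio 1.18), and MYB (ratio 0.857) and lrwd1 (ratio 0.849) fell, although the lrwd1 call was lost without control 1 (adjusted p = 0.0525).

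Among transition zone and transport genes, which serve primary and motile cilia, the called genes also went both ways. Of 37 transition zone genes 2 rose and 2 fell (10.8% called, beside 20.3% of all genes tested). Among those that rose was nphp4 (ratio 1.28, limma adjusted p = 0.0337), whose product binds that of rpgrip1l. The transition zone membrane protein tmem107 (ENSDARG00000059150, ratio 0.726, limma adjusted p = 0.000537) and the distal appendage protein CEP83 (ratio 0.744, limma adjusted p = 0.0241) fell. Another identifier listed as TMEM107 (ENSDARG00000088398) was not called (ratio 0.901, limma adjusted p = 0.505). The nphp4 call was lost without any library but mutant 2 or control 2, and the CEP83 call without mutants 1, 2 or 3 or control 2, with adjusted p up to 0.0941 and 0.0667 over the alternatives. Of 41 genes of intraflagellar transport and the BBSome, IFT140 (ratio 1.27) and BBS2 (ratio 1.2) rose and BBIP1 (ratio 0.805) fell. This makes 7.32% called, beside 20.3% of all genes tested.

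Markers of tissues that bear motile cilia were read from the same fit. Pronephros genes summed to between 250.9 and 267.1 TPM in mutants, against 258.9 to 266.6 TPM in controls. Of 18 tested 2 rose and 3 fell (27.8% called, beside 20.3% of all genes tested). Both risers were copies of SLC20A1, a phosphate carrier of the tubule (ratios 1.09 and 1.39). Their calls were lost in several fits with a library left out (adjusted p up to 0.0635 and 0.117 over the alternatives). Copies of SLC4A4 (ratio 0.808) and IRX3 (ratio 0.868), and TRPM7 (ratio 0.859), fell. The other copies of SLC4A4 (ratio 1.01, limma adjusted p = 0.948) and IRX3 (ratio 0.946, limma adjusted p = 0.493) were not called. None of 8 inner ear genes was called by limma, and 1 had an unadjusted p under 0.05, beside 6250 of the 18635 genes tested. Their sum was 78.7 to 82.2 TPM in mutants, against 77.4 to 84.6 TPM in controls. Of 6 floor plate genes a copy of NTN1 (ENSDARG00000022531) rose (ratio 1.17), which makes 16.7% called. The other copy of NTN1 was not called (ratio 1.09, limma adjusted p = 0.471). FOXA1 (ratio 0.887) and a copy of SHH (ENSDARG00000038867, ratio 0.907) were lower in every mutant than in any control, but were not called. For that copy the gap was narrow, 5.51 TPM in mutant 2 against 5.55 TPM in control 2. The other copy of SHH overlapped and was not called (ratio 1.02, limma adjusted p = 0.773). The groups did not overlap in 3 of the 6 genes (50%), beside 24.5% of all genes tested. The Reissner fibre gene sspo averaged 0.0663 TPM over the 8 libraries and was not tested. None of 7 genes of the neurons that contact cerebrospinal fluid was called by limma (2 had an unadjusted p under 0.05), with sums of 44.9 to 47.2 TPM in mutants, against 47.1 to 50.1 TPM in controls.

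Olfactory placode markers were almost undetected, since 1 of 8 genes reached 0.5 TPM, and it was not called by limma. Of 3 left-right patterning genes lft2 fell (ratio 0.579, limma adjusted p = 0.0164), which makes 33.3% called, beside 20.3% of all genes tested. In the same list lft1 was higher in every mutant than in any control, but was not called (ratio 1.36, limma adjusted p = 0.0747). Of 3 germ cell genes NANOS3 fell (ratio 0.607, limma adjusted p = 0.0309), again 33.3% called. The NANOS3 call was lost without mutants 1, 2 or 3 or controls 2, 3 or 4 (adjusted p up to 0.0791). The part of these tissues in the changes of the ciliary genes was not tested.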

How the data were processed

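RNA was sequenced from whole larvae in 4 nphp8 mutant and 4 control samples. STAR 2.7.3a and RSEM 1.3.1 were used with the GRCz11 build, per the submitters' processing notes, and the authors deposited one table of TPM per Ensembl gene and library. The library kit's strand setting and polyadenylated RNA selection are not given in the sources used here. Read counts cannot be recovered from TPM, so depth is unknown and no interval that needs a count is given.

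Groups came from the sample titles, and the columns of the table were matched to them by name and number. Symbols came from a table in which 29201 of 32520 gene identifiers (89.8%) had one, and 5 members share theirs with another identifier. Overlapping genes came from a RefSeq table of another assembly, GRCz12tu, used for names and order alone. Of the members 65 could be placed in it. Overlaps of the rest, among them DNAH11 and both copies of DNAL1 and DNAL4, could not be looked up. No sequence was used here.

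Differences were tested with limma 3.58.1 in R 4.3.3 (two-sided; lmFit, then eBayes with its trend option) on log2(TPM + 1), over the 18635 genes that averaged 0.5 TPM or more, with Benjamini-Hochberg adjustment over all of them and no covariate. Every adjusted p comes from this fit unless another is named. Folds are ratios of mean TPM. Named are all called members, the 2 most abundant of each role, foxj1b and RFX2, the 3 on each side of the limit, and up to 5 called genes of each other list, of which 1 is not reported here; further members are named to complete a role and were picked with their values in view. The members and lists were chosen with earlier results of these data known. Alternatives covered pseudocounts, filters, rescaling, the variance model, a replicate block, each library left out and shared symbols. Python 3.11.15 with pandas 2.3.3 was used for tables.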

Additional observations from a re-analysis of the deposited data

Results flagged for a closer look

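In 8 of 146 groups of 4 libraries, one library lay far from the other 3 by Dixon's criterion, which chance alone meets in about 1 in 20 groups. Mutant 1 was high for cfap251 (1.49 TPM, the other mutants 0.52 to 0.64) and cfap77 (3.22 TPM, the others 1.96 to 2.1), and low for SPAG6 (1.91 TPM, the others 2.17 to 2.22). Mutant 3 was high for CFAP100 (1.76 TPM, the others 1.25 to 1.33), and mutant 4 for cfap210 (3.6 TPM, the others 2.73 to 2.86). Among controls, control 2 was high for rsph14 (1.06 TPM, the others 0.28 to 0.41) and low for RSPH4A (2.72 TPM, the others 3.4 to 3.47), and control 4 was high for DRC7 (0.93 TPM, the others 0.55 to 0.61). None of these genes was called.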

How the results depend on the processing

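The 7 called members kept the sign of their change in the 17 to 19 alternative fits that tested each, and CCDC39, DNAH11 and CFAP298 kept their call in each that tested them, whereas DRC1, LRRC23, cfap119 and DNAL1 (ENSDARG00000034042) lost it in some. Against 2 members higher and 5 lower, there were 1 and 3 with no filter on level, where more genes were tested, and 0 and 2 above 5 TPM, where 12 members were tested. After median-of-ratios rescaling, and likewise without the trend option, there were 3 higher and 5 lower. With the replicate block there were 1 higher and 2 lower, and over all genes 1149 higher and 1716 lower. Among the named genes of other lists, pih1d2 (adjusted p = 0.0917), nphp4 (0.0941), SLC20A1 (ENSDARG00000020114, 0.0757), NTN1 (ENSDARG00000022531, 0.0631) and lft2 (0.051) lost their call with the block. The replicate numbers share only a number: deviations of same-numbered mutants and controls from their group means correlated at -0.016, -0.049, -0.096 and -0.038, and no mutant correlated best with its own number. Leaving out each library gave 1 to 2 higher and 2 to 6 lower. Without mutants 1 or 3 or control 3 there were 1 higher and 2 lower, without controls 1 or 2 there were 1 and 3, and without mutant 4 or control 4 there were 1 and 4. The members' median log2 change was -0.073 above 1 TPM, against -0.043, where 58 members were tested. Members whose groups did not overlap numbered 2 above 5 TPM, against 8. RPGRIP1L was called in every alternative that tested it. The number of libraries and the scatter of genes near 1 TPM limit what could be detected.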
